A study of Mus musculus with 6 samples.

Results

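Hgf and Met, Gas6 and Axl, and Csf1 and Csf1r are 3 pairs of a secreted ligand and the receptor tyrosine kinase it activates. Their 6 genes were taken by symbol from the table in which the authors compared Bahd1-KO with Bahd1-WT MEFs, and each symbol matched 1 transcript cluster, the array's unit for a gene. They are 6 of the 491 clusters that this table names and of the 23332 clusters measured. The table holds only clusters that passed the authors' test between the genotypes on these same arrays, so the differences between genotypes are given here as a description, with no test.

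MEFs are primary embryonic fibroblasts, and Bahd1 encodes a protein of chromatin-repressive complexes. The 3 Bahd1-KO MEF cultures, with total ablation of Bahd1, and the 3 Bahd1-WT MEF cultures came from embryos of crosses between heterozygous mice at stage E13.5, and the labels give the strain of both as C57BL/6. Every embryo was beheaded and digested on its own, so each culture is 1 embryo, and the cells were passaged once after thawing. RNA of each culture was hybridised to 1 Mouse Exon 1.0 ST array. The values are log2 expression after the authors' RMA normalization, and levels of different genes cannot be set against each other because their probes differ. The arrays are numbered 1 to 3 within each genotype. The 6 arrays had median log2 values of 5.01 to 5.06 over all clusters. The level of Bahd1 was not analysed here, since its cluster is not named. Under that symbol Bahd1 was thus not among the clusters that passed the authors' test on these arrays. The paper states that it checked the loss of Bahd1 expression by RT-qPCR, in MEFs among other samples.

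A receptor tyrosine kinase pairs up when its ligand binds, phosphorylates itself and passes the signal to adaptor proteins and the ERK and PI3K pathways. HGF is classically made by mesenchymal cells such as fibroblasts and acts on epithelial cells that carry MET, which drives growth, scattering and branching. GAS6 is a vitamin K-dependent protein that bridges exposed phosphatidylserine to the TAM receptors TYRO3, AXL and MERTK. CSF1 is the main survival factor of macrophages, and CSF1R is best known as a receptor of the macrophage lineage.

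All 6 genes had the higher mean in Bahd1-KO MEFs, and for each of them every Bahd1-KO array lay above every Bahd1-WT array. The table from which they were taken fixes most of this, because every Bahd1-KO array also lay above every Bahd1-WT array in 293 of the 354 table genes that were higher in Bahd1-KO MEFs (82.8%) and in 11.4% of all clusters. The log2 differences ran from 0.31 for Gas6 to 0.67 for Csf1, with a median of 0.44. Over all clusters the median difference was 0.02, and over the 354 higher table genes it was 0.53. By size of difference Csf1 stood at rank 95 of the 354, Hgf at 207, Met at 238, Csf1r at 248, Axl at 263 and Gas6 at 330. The largest, the second largest and the smallest difference of the 6 were those of the ligands. The limma test over all clusters called 0 of 23332 at an adjusted p under 0.05 (0%) and so 0 of these 6 genes. At an unadjusted p under 0.05 all 6 passed, as did 10.4% of all clusters in either direction and 6.54% with the higher mean in Bahd1-KO MEFs, from which nothing is read, since the same contrast chose the genes.

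**Figure D1:**
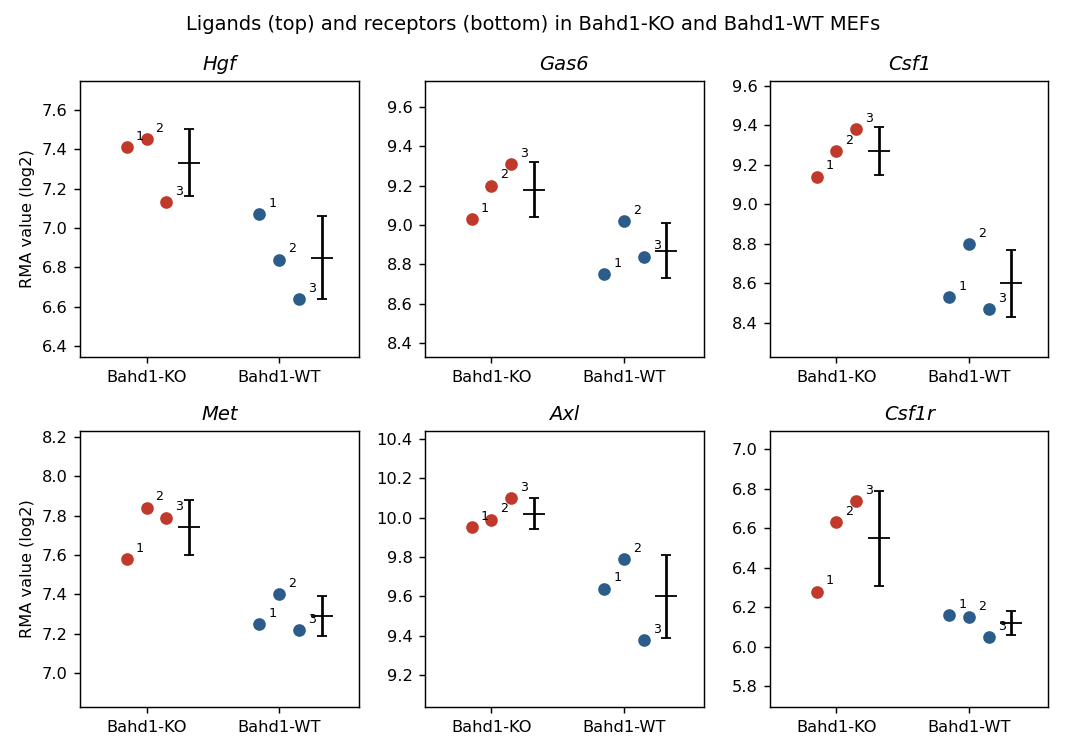
RMA log2 value of each gene in the 3 Bahd1-KO and 3 Bahd1-WT MEF cultures, with the ligand above its receptor. Points are arrays, numbered by replicate, and the bar to the right of each group is its mean ± SD; every panel spans the same log2 range. In each panel the 3 Bahd1-KO arrays lie above the 3 Bahd1-WT arrays, by the widest gap for Csf1 (0.35) and the narrowest for Gas6 (0.01).

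RefSeq promoter sequences (assembly GRCm38.p6, 250 bases before to 50 after the start of the gene) matched 5 of the 6 symbols and are shown because these genes were all higher in the Bahd1-KO arrays. They read 5′ to 3′ on the strand of the gene, and capitals mark matches on either strand to GGGCGG (the core bound by Sp1), TGANTCA (AP-1), ACGTG (the core of hypoxia response elements), AGGTCA (a nuclear receptor element) and CACGTG (an E-box, which contains ACGTG). Hgf has 2 listed starts, and the one at the annotated start of the gene is shown.
Hgf promoter, chr5:16553245-16553544, plus strand: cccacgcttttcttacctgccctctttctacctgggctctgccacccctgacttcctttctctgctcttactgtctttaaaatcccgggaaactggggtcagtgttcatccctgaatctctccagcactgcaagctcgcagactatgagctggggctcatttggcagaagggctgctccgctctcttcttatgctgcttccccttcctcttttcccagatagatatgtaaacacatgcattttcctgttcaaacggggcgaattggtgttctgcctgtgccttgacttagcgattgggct
Met promoter, chr6:17463707-17464006, plus strand: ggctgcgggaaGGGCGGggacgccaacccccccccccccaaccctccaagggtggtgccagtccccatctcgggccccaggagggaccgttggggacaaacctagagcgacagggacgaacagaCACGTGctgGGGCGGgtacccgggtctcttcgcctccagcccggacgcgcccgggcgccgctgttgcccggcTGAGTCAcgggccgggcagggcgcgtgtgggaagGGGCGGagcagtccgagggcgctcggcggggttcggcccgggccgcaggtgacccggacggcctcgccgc
Gas6 promoter, chr8:13494486-13494785, minus strand: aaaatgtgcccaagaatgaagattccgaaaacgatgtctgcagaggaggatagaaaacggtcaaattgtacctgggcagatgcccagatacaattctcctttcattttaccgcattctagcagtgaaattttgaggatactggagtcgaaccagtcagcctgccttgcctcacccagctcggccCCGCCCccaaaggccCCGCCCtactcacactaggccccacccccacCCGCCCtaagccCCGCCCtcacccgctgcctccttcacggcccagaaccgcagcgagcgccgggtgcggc
Axl promoter, chr7:25788684-25788983, minus strand: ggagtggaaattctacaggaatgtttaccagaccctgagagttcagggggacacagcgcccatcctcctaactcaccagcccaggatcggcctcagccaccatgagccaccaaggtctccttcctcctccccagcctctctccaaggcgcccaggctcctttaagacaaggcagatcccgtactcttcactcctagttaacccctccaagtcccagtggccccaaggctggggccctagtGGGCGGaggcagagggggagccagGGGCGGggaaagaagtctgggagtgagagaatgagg
Csf1 promoter, chr3:107760420-107760719, minus strand: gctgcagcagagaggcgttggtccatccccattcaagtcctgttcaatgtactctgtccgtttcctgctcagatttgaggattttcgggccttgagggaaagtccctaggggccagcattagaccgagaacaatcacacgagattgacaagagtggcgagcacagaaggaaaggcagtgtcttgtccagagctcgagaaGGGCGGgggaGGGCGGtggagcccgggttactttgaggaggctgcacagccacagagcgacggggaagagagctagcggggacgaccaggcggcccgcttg

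GGGCGG was found in 4 of these 5 promoters, 3 times in Met, 4 times in Gas6, 2 times in Axl and 2 times in Csf1, against 35.7% of the 32851 mouse promoters searched. The Gas6 matches all lie on the opposite strand, read as CCGCCC. The Hgf window, like that of its other start, held none of the 5 motifs. Met alone held further ones, 1 TGANTCA (7.81% of all promoters) and 1 CACGTG (7.15%) with its ACGTG on both strands (19.6%), and none of the 5 held AGGTCA (16.3%). The GC content was 75.7% for Met, 60.3% for Axl, 58.7% for Csf1, 58.3% for Gas6 and 51.3% for Hgf, with a median of 52.7% over all promoters. A match to these letters is a description and not a site of binding.

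The ligand of the first pair, Hgf (hepatocyte growth factor, chromosome 5, 156 probes), was at 7.41, 7.45 and 7.13 in Bahd1-KO MEFs 1 to 3 and at 7.07, 6.84 and 6.64 in Bahd1-WT MEFs 1 to 3. The groups did not overlap, but Bahd1-KO MEFs 3 lay only 0.07 above Bahd1-WT MEFs 1. The means were 7.33 ± 0.17 in Bahd1-KO and 6.85 ± 0.21 in Bahd1-WT MEFs (SD, n = 3 each), a difference of 0.48 (standard error 0.14), or 1.4-fold. Its receptor gene Met (chromosome 6, 239 probes) was at 7.58, 7.84 and 7.79 in Bahd1-KO MEFs 1 to 3 and at 7.25, 7.40 and 7.22 in Bahd1-WT MEFs 1 to 3. The means of Met were 7.74 ± 0.14 in Bahd1-KO and 7.29 ± 0.10 in Bahd1-WT MEFs (SD, n = 3 each), a difference of 0.45 (standard error 0.10), or 1.36-fold. Met had the smallest spread within genotypes of the 6 genes, with a pooled SD of 0.12, and Hgf the largest, with 0.19, while the median over all clusters was 0.15.

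Hgf and Met were higher by nearly the same amount, each without overlap between the genotypes. Within each genotype the arrays ran in different orders for the pair, as Hgf was lowest in Bahd1-KO MEFs 3 and Met in Bahd1-KO MEFs 1, and Hgf was highest in Bahd1-WT MEFs 1 and Met in Bahd1-WT MEFs 2. The log2 value of Hgf minus that of Met was -0.17, -0.38 and -0.66 in Bahd1-KO MEFs 1 to 3 and -0.18, -0.56 and -0.57 in Bahd1-WT MEFs 1 to 3. These overlapped almost wholly, with means of -0.41 ± 0.25 in Bahd1-KO and -0.44 ± 0.22 in Bahd1-WT MEFs (SD, n = 3 each). The shift of the ligand exceeded that of the receptor by 0.03 (standard error 0.17), and leaving out 1 array at a time gave -0.08 to 0.16, so no order of the 2 shifts can be read. Ligand and receptor deviated from their genotype means in the same direction in 2 of the 6 arrays.

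Gas6 (growth arrest specific 6, chromosome 8, 129 probes) was at 9.03, 9.20 and 9.31 in Bahd1-KO MEFs 1 to 3 and at 8.75, 9.02 and 8.84 in Bahd1-WT MEFs 1 to 3. Bahd1-KO MEFs 1 and Bahd1-WT MEFs 2 differed by 0.01, so the groups all but touched. Without Bahd1-WT MEFs 2 the gap was 0.19 and without Bahd1-KO MEFs 1 it was 0.18. The means of Gas6 were 9.18 ± 0.14 in Bahd1-KO and 8.87 ± 0.14 in Bahd1-WT MEFs (SD, n = 3 each), a difference of 0.31 (standard error 0.11), or 1.24-fold. Of all clusters, 17.8% had a larger absolute difference. Axl (chromosome 7, 169 probes), which encodes its highest-affinity receptor, was at 9.95, 9.99 and 10.10 in Bahd1-KO MEFs 1 to 3 and at 9.64, 9.79 and 9.38 in Bahd1-WT MEFs 1 to 3. The Bahd1-KO arrays of Axl lay close together and the Bahd1-WT arrays further apart, with means of 10.02 ± 0.08 in Bahd1-KO and 9.60 ± 0.21 in Bahd1-WT MEFs (SD, n = 3 each). The difference was 0.41 (standard error 0.12), or 1.33-fold.

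The Gas6 value minus the Axl value was -0.92, -0.79 and -0.79 in Bahd1-KO MEFs 1 to 3 and -0.89, -0.77 and -0.54 in Bahd1-WT MEFs 1 to 3. Apart from Bahd1-WT MEFs 3, in which Axl was lowest, the groups covered the same range. The shift of Gas6 minus that of Axl was -0.11 (standard error 0.11), and -0.18 to -0.01 when 1 array was left out at a time. In both genes Bahd1-KO MEFs 1 was the lowest and Bahd1-KO MEFs 3 the highest of its genotype, and Bahd1-WT MEFs 2 was the highest of the Bahd1-WT arrays. Gas6 and Axl deviated from their genotype means in the same direction in 4 of the 6 arrays.

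Csf1 (colony stimulating factor 1, chromosome 3, 101 probes) had the widest separation of the 6 genes. It was at 9.14, 9.27 and 9.38 in Bahd1-KO MEFs 1 to 3 and at 8.53, 8.80 and 8.47 in Bahd1-WT MEFs 1 to 3. The lowest Bahd1-KO array lay 0.35 above the highest Bahd1-WT array, and the means were 9.27 ± 0.12 in Bahd1-KO and 8.60 ± 0.17 in Bahd1-WT MEFs (SD, n = 3 each). The difference of 0.67 (standard error 0.12), or 1.59-fold, was 4.46 times the pooled SD, and only 3.72% of all clusters had a larger absolute difference. Csf1 was the only one of the 6 genes with a fold change of at least 1.5, which 2.6% of all clusters reached in the same direction.

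Csf1r (chromosome 18, 177 probes) was at 6.28, 6.63 and 6.74 in Bahd1-KO MEFs 1 to 3 and at 6.16, 6.15 and 6.05 in Bahd1-WT MEFs 1 to 3. The Bahd1-WT arrays lay within 0.11 of each other, whereas Bahd1-KO MEFs 1 lay closer to them than to the other Bahd1-KO arrays. The means of Csf1r were 6.55 ± 0.24 in Bahd1-KO and 6.12 ± 0.06 in Bahd1-WT MEFs (SD, n = 3 each), a difference of 0.43 (standard error 0.13), or 1.35-fold. Without Bahd1-KO MEFs 1 the difference was 0.57.

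Csf1r was the only one of 30 listed macrophage markers that the table names. The other 29, among them Adgre1, Cd68, Ptprc and Spi1, have no named cluster here, so none passed the authors' test under these symbols. Their values could not be looked up, and the part of other cells in the Csf1r values was not tested. In bulk RNA, a change in the number of cells of a type and a change in the RNA per cell cannot be told apart. Other cell type markers that the table names, which passed the authors' test on these arrays, also differed. The 2 named of 12 fibroblast markers, Pdgfra and Lum, averaged 7.73 to 8.10 over the Bahd1-KO arrays and 8.35 to 8.85 over the Bahd1-WT arrays. The 2 named of 13 endothelial markers, Flt1 and Emcn, averaged 6.94 to 7.17 in Bahd1-KO and 5.90 to 6.34 in Bahd1-WT arrays. Of these, Flt1 overlapped between the genotypes (difference 0.56) and Emcn did not (1.25). The 2 named of 12 epithelial markers, Krt18 and Krt19, averaged 8.63 to 8.68 in Bahd1-KO and 7.52 to 7.83 in Bahd1-WT arrays. The 4 named of 13 muscle markers, Cnn1, Des, Acta1 and Tnnt2, averaged 8.25 to 8.50 in Bahd1-KO and 7.73 to 7.82 in Bahd1-WT arrays. Their part in the 6 genes' values was not tested.

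The Csf1 value minus the Csf1r value was 2.87, 2.64 and 2.64 in Bahd1-KO MEFs 1 to 3 and 2.37, 2.64 and 2.43 in Bahd1-WT MEFs 1 to 3. Bahd1-WT MEFs 2 reached the level of Bahd1-KO MEFs 2 and 3, so the groups touched. The shift of Csf1 exceeded that of Csf1r by 0.24 (standard error 0.11), the largest of the 3 ligand minus receptor values, and by 0.16 to 0.32 when 1 array was left out at a time. Csf1 and Csf1r deviated from their genotype means in the same direction in 5 of the 6 arrays. In both, Bahd1-KO MEFs 1 was the lowest and Bahd1-KO MEFs 3 the highest of its genotype, as for Gas6 and Axl. For the 3 pairs, the counts of deviations in the same direction were not set against those of other gene pairs. Deviations within a genotype cancel out, so their signs are not independent.

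**Figure D2:**
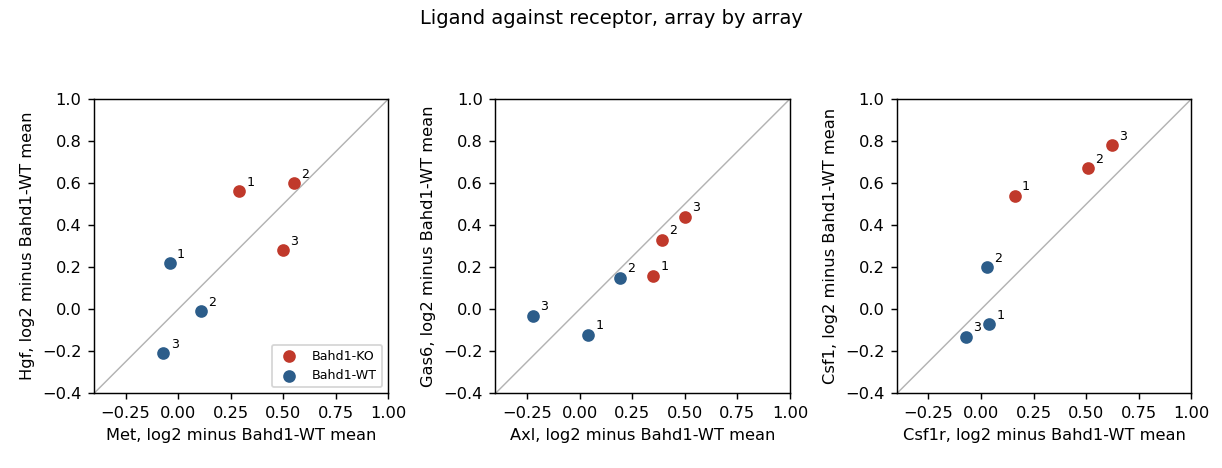
Log2 value of each ligand (vertical axis) against that of its receptor (horizontal axis), both minus the mean of the Bahd1-WT arrays. Points are arrays, numbered by replicate, and the line marks equal shifts. Csf1 lies above the line in all 3 Bahd1-KO arrays, Gas6 below it in all 3, and Hgf on both sides. In each panel the Bahd1-WT arrays, which are centred on their own mean, lie on both sides.

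The order of the arrays within a genotype varied from gene to gene, but its ends were often the same. Bahd1-KO MEFs 1 was the lowest Bahd1-KO array for Met, Gas6, Axl, Csf1 and Csf1r, which holds for 31.2% of all clusters. Bahd1-WT MEFs 2 was the highest Bahd1-WT array for Met, Gas6, Axl and Csf1, against 34.4% of all clusters. Both held for these 4 genes, for 10.4% of all clusters and for 25.1% of the 354 higher table genes, and this pattern was picked out after the values had been seen. For Csf1r, Bahd1-WT MEFs 1 and 2 were at 6.16 and 6.15, so their order cannot be told from these values.

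Bahd1-KO MEFs 1 and Bahd1-WT MEFs 2 also differed from the other arrays of their genotype in the level of 3 Y-linked genes, Ddx3y, Kdm5d and Eif2s3y. Their mean log2 value was 2.38, 7.06 and 7.03 in Bahd1-KO MEFs 1 to 3 and 2.36, 7.19 and 2.38 in Bahd1-WT MEFs 1 to 3. The labels do not give the embryos' sex. By this level Bahd1-KO MEFs 2 and 3 and Bahd1-WT MEFs 2 read as male and the others as female. Sex so read is unbalanced between the genotypes. Among the arrays with a high Y-linked level, 2 of Bahd1-KO and 1 of Bahd1-WT MEFs, the differences were 0.45 for Hgf, 0.41 for Met, 0.23 for Gas6, 0.26 for Axl, 0.53 for Csf1 and 0.53 for Csf1r. Among those with a low level, 1 of Bahd1-KO and 2 of Bahd1-WT MEFs, they were 0.56 for Hgf, 0.35 for Met, 0.24 for Gas6, 0.44 for Axl, 0.64 for Csf1 and 0.18 for Csf1r. All 12 of these values were above 0, which was fixed beforehand, since the arrays of the genotypes did not overlap for any of these genes. With the Y-linked level as a covariate the differences were 0.50, 0.38, 0.24, 0.35, 0.59 and 0.36 in the same order of genes. The shift of Csf1 over Csf1r was 0.00 within the high and 0.47 within the low arrays.

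**Figure D3:**
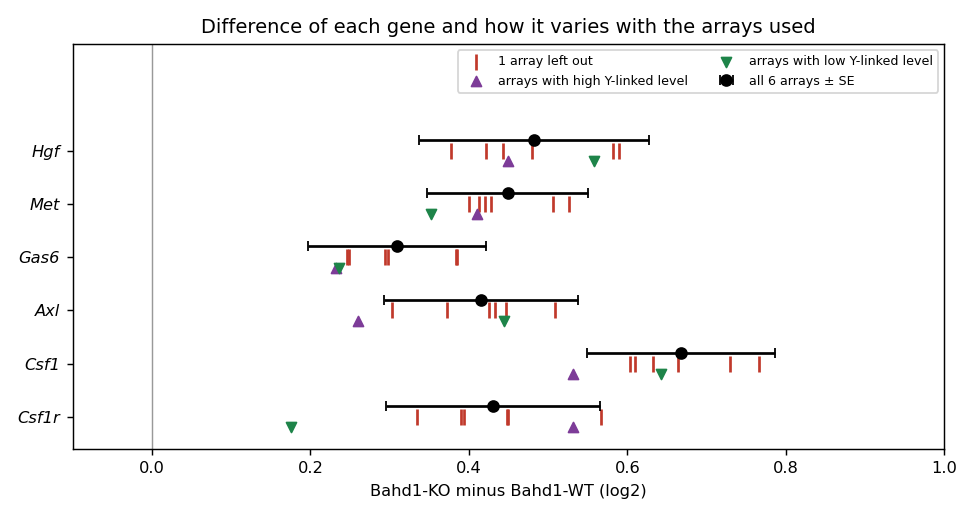
Bahd1-KO minus Bahd1-WT log2 difference of each gene. Black points are the value over all 6 arrays with its standard error, red ticks the value with 1 array left out, and triangles the values within the arrays of high (upward) or low (downward) Y-linked level. All marks lie above 0, which the lack of overlap between the genotypes fixed beforehand, and the lowest is the 0.18 of Csf1r within the low arrays.

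The named genes with the array pattern most like each member were found by Pearson's r over the 6 arrays among the other genes of the table. These all differ between the same groups, so high values are common, and r exceeded 0.9 for 170 genes with Csf1 and 36 with Hgf. Plcb4, which encodes a phospholipase C, was nearest to Hgf (r = 0.995), followed by Prrg4 (0.991) and Cux1 (0.984). Met was matched by Lims2 (0.995), Pank3 (0.994) and Serpinb2 (0.991). Gas6 lay nearest to the kinase gene Sik1 (0.984), the connexin gene Gjb2 (0.973) and the kinase gene Pim3 (0.969). The netrin receptor gene Unc5b had the highest r of all with Axl (0.999), ahead of the sterol enzyme gene Hsd17b7 (0.994) and Ly75 (0.992). For Csf1 these were Mobkl2a (0.994), Micall2 (0.991) and Lmod1 (0.991), and for Csf1r they were Idh3a (0.989), the cytokine gene Tslp (0.985) and Fhl3 (0.980). Of the 6 genes set against each other, Met and Csf1 had the highest r over the 6 arrays (0.979), while r was 0.752 for Hgf and Met, 0.867 for Gas6 and Axl and 0.907 for Csf1 and Csf1r. These values contain the difference between genotypes by which the genes were chosen. With each genotype's mean taken out, r was -0.065 for Hgf and Met, 0.58 for Gas6 and Axl and 0.664 for Csf1 and Csf1r. The highest r so taken was that of Gas6 and Csf1 (0.911), ahead of Axl and Csf1 (0.862). Met had an r of 0.86 with Gas6 and likewise with Csf1.

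Of 173 other genes listed for these pathways and for receptor tyrosine kinases at large, the table names 11, of which 10 were higher and 1 lower in Bahd1-KO MEFs, with a median difference of 0.54. In 9 of the 11 the groups did not overlap, against 18.1% of all clusters, and limma called 0 of them, as it called 0 of all clusters. The authors' test had chosen all 11 on these arrays. Of the 10 higher genes 8 did not overlap, against 82.8% of the 354 higher table genes, so nothing is read from this count. The other receptors and ligands of the 3 families, Mst1, Mst1r, Pros1, Tyro3, Mertk, Tulp1, Tub, Lgals3, Il34, Ptprz1 and Sdc1, are not named in the table, nor is any of 10 genes listed as TAM partners. Under these symbols none of them passed the authors' test, and their values could not be looked up.

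Around HGF, 2 of 11 genes listed for its activation and inhibition are named. Plau encodes urokinase, a protease that can activate pro-HGF, and was at 9.50, 9.83 and 9.85 in Bahd1-KO MEFs 1 to 3 and at 9.25, 9.68 and 9.46 in Bahd1-WT MEFs 1 to 3. These values overlap, with a difference of 0.26 (standard error 0.15). Plaur, the urokinase receptor gene, was at 9.29, 9.39 and 9.77 in Bahd1-KO and at 8.79, 9.04 and 9.02 in Bahd1-WT MEFs, a difference of 0.54 (standard error 0.15). The values of Plaur did not overlap between the genotypes.

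Of 20 genes listed as MET partners and adaptors only Nrp1, a co-receptor gene, is named. It was at 9.94, 10.11 and 10.08 in Bahd1-KO and at 9.72, 9.74 and 9.25 in Bahd1-WT MEFs, a difference of 0.47 (standard error 0.15). Of 16 genes of CSF1R signalling only Lyn, a Src family kinase gene, is named, at 6.37, 6.57 and 6.78 in Bahd1-KO and 6.15, 6.06 and 5.58 in Bahd1-WT MEFs, a difference of 0.65 (standard error 0.19). Lyn, like Csf1r, was lowest in Bahd1-KO MEFs 1 and highest in Bahd1-KO MEFs 3 among the Bahd1-KO arrays.

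Among other receptor tyrosine kinases 2 of 52 are named, in opposite directions. Pdgfra, a receptor of fibroblasts, was the 1 gene of the pathway lists that was lower, at 8.36, 8.50 and 8.13 in Bahd1-KO and 8.74, 8.80 and 9.10 in Bahd1-WT MEFs, a difference of -0.55 (standard error 0.14). Its ligand gene Pdgfa was higher by 0.38 (standard error 0.09), at 7.99, 7.89 and 7.91 in Bahd1-KO and 7.44, 7.68 and 7.53 in Bahd1-WT MEFs. In that pair the ligand and the receptor differed in opposite directions, whereas both were higher in each of the 3 pairs above. Nothing is read from this contrast, since those 3 pairs were chosen with earlier results of these data known. Flt1, a VEGF receptor gene, overlapped, with a difference of 0.56 (standard error 0.22). Of 55 ligand genes 5 are named and all were higher without overlap, the EGF receptor ligands Areg (0.95), Hbegf (0.73) and Ereg (0.70), and Fgf7 (0.39) and Pdgfa. By the size of these log2 differences Csf1, at 0.67, and Hgf, at 0.48, lay between Ereg and Fgf7, and Gas6, at 0.31, lay below all 5. Every Bahd1-KO array lay above every Bahd1-WT array in 82.8% of the 354 higher table genes and in 11.4% of all clusters. Nothing is therefore read from the lack of overlap in these 5 ligand genes.

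**Figure D4:**
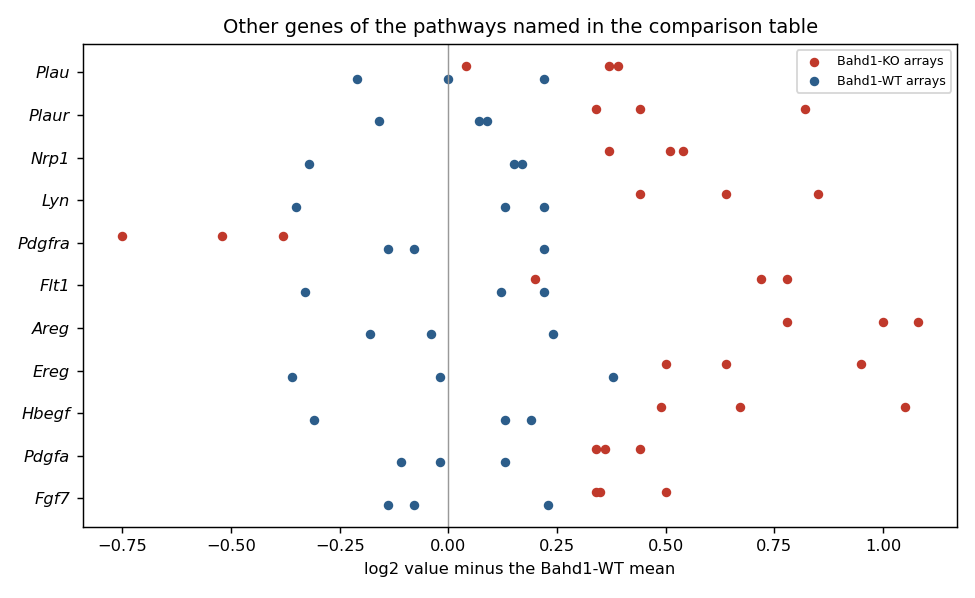
The 11 other genes of the pathway lists that the comparison table names, as log2 values minus the mean of the Bahd1-WT arrays, with 3 Bahd1-KO arrays (upper points of each row) and 3 Bahd1-WT arrays (lower points). Only Pdgfra lies below 0 in the Bahd1-KO arrays, and Plau and Flt1 overlap between the genotypes.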

How the data were processed

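RNA of 6 primary MEF cultures, 3 Bahd1-KO and 3 Bahd1-WT, was hybridised to Mouse Exon 1.0 ST arrays, 1 for each culture. The authors deposited gene-level log2 values made with RMA (background correction, normalization between arrays, summary of core-level probes per gene) for 23332 clusters. The RMA version, annotation version and genome build are not given in the sources used here. The authors' deposited comparison table adds symbols for 491 clusters with log2 values identical to those of the full table. It also holds 6 columns of the authors' own comparison (SDs, median difference, fold change, score and adjusted p of their LPE test), which were not used. The table's other deposited column used here is the number of probes in each cluster.

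Differences are Bahd1-KO minus Bahd1-WT means. Standard errors and calls come from limma (version 3.58.1, R 4.3.3; lmFit and eBayes, two-sided, Benjamini-Hochberg over all clusters, threshold 0.05), in place of the authors' LPE test. No filter was applied, and the fit was tested on simulated data. The standard error of a ligand minus receptor shift used limma's prior variance. Named genes are the 6 members, the table's genes of 9 pathway lists, the 3 most alike by r for each member, and the table's genes of the cell type marker and Y-linked lists. Some genes of the lists or alike by r are not reported here. Members and lists were chosen with earlier results of these data known. Precision is limited by having 3 arrays a genotype, for which the smallest two-sided p of an exact permutation test is 0.1. Alternatives were another quantile normalization, median centring, group medians, array weights, a trended and robust prior, brighter clusters only, a 1.5-fold threshold, the replicate number as a block, the Y-linked level as a covariate and each array left out. The values within arrays of like Y-linked level were added after seeing the data.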

Additional observations from a re-analysis of the deposited data

How the results depend on the processing

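All 84 values of the 6 genes' differences under 14 alternatives for each gene were above 0 and ran from 0.38 to 0.59 for Hgf, 0.35 to 0.55 for Met, 0.23 to 0.39 for Gas6, 0.26 to 0.51 for Axl, 0.53 to 0.77 for Csf1 and 0.18 to 0.57 for Csf1r. The 0.18 of Csf1r, within the arrays of low Y-linked level, was the only one of these further from the value over all arrays than the spread between replicates. In all 6 genes every Bahd1-KO array lay above every Bahd1-WT array. The sign was therefore fixed beforehand with 1 array left out, for group medians, and within arrays of like Y-linked level. It was also fixed for array weights and the replicate block. With 1 array left out, the differences ran from 0.38 to 0.59 for Hgf, 0.40 to 0.53 for Met, 0.25 to 0.39 for Gas6, 0.30 to 0.51 for Axl, 0.60 to 0.77 for Csf1 and 0.33 to 0.57 for Csf1r. The shift of Hgf over Met turned to the other sign without Bahd1-KO MEFs 1 (-0.083), Bahd1-WT MEFs 2 (-0.028) or Bahd1-WT MEFs 3 (-0.034), in a range of -0.08 to 0.16, that of Gas6 over Axl ran from -0.18 to -0.01, and that of Csf1 over Csf1r from 0.16 to 0.32. The last was 0.00 within the arrays of high and 0.47 within those of low Y-linked level, and the cause was not tested. limma called 0 clusters over all 23332, and 29 higher and 7 lower among the 11666 brightest, where fewer clusters were tested and 0 of the 6 genes passed. At a fold change of at least 1.5 in place of the adjusted p, 607 clusters were higher, 620 lower and 1 of the 6 genes, Csf1, was past it. Samples of the same replicate number did not deviate together over all clusters (r of -0.001, 0.027 and 0.000). These values cannot show whether such samples shared a litter or a batch, which was not tested. With the replicate block the differences were the same and limma called 0 clusters higher, 0 lower and 0 of the 6 genes.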
